A study of Mus musculus with 6 samples.

Results

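The genes described here encode 9 proteins of the early complement cascade, C1qa, C1qb, C1qc, C1ra, C1s1, C2, C3, C4b and Serping1. They were taken by gene symbol from a count table of 55291 genes, where all 9 were found, and all 9 passed the filter on low counts. RNA was sequenced from dorsal skin of mice at day 40, with 3 wild-type samples of strain C57BL/6 and 3 samples of strain B6.Cg-Fbn1Tsk/J, called Tsk here. The Tsk samples carry the tight-skin allele of Fbn1, the gene of fibrillin 1, a protein of extracellular microfibrils. The labels write their genotype as Fbn1+/-, a notation that usually marks a lost copy, whereas tight-skin is known as an internal duplication, so the reading of these samples as heterozygous for tight-skin is an assumption. The labels name no treatment for either group. Whole skin was used, so a level reflects epidermis, hair follicles, dermis, fat and underlying muscle together.

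Complement is a chain of plasma and tissue proteins that coats targets for uptake and can punch holes in membranes. In the classical pathway, the recognition molecule C1q, built from the chains C1qa, C1qb and C1qc, carries the proteases C1r and C1s. C1s cuts C4 and C2, whose fragments form the enzyme that cuts C3, the protein on which all pathways meet. Serping1 encodes C1 inhibitor, which blocks C1r and C1s. The liver makes most plasma complement, while in tissues C1q comes mainly from macrophages and dendritic cells, and C1r, C1s, C3, C4 and C1 inhibitor are also made by fibroblasts.

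Library totals ran from 17561271 to 19219622 counts. Whether the samples are different mice is not in the labels, so the spread behind each p-value may be technical. Fbn1 held 4684, 5420 and 4765 counts in the wild-type libraries and 27971, 43910 and 37855 in the Tsk libraries, so it separated the groups. Of 19971 genes tested with edgeR's quasi-likelihood test, 683 (3.42%) passed a Benjamini-Hochberg adjusted p of 0.05, with 544 (2.72%) higher and 139 (0.696%) lower in Tsk. Skin was represented in both groups by the 8 keratinocyte markers, which summed to 4842 to 7467 CPM for wild type and 3890 to 6856 CPM for Tsk. CPM, the usual depth-scaled count of a gene, was scaled by TMM, the trimmed mean of M values. The 12 skeletal muscle markers made up 16.2 to 23.6% of the wild-type reads counted and 13.9 to 15.98% of those of Tsk.

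Several of these genes lie side by side or have close copies, which bears on how well their reads can be told apart, so the sequences concerned are given before the values. All coordinates are those of the mm10 build. The C1q genes sit within 18.7 kb on the minus strand of chromosome 4, C1qb at 136880129 to 136886187, C1qc at 136889804 to 136893065 and C1qa at 136895917 to 136898803. C1ra (124512405 to 124523443, plus strand) and C1s1 (124530345 to 124542359, minus strand) lie 6.9 kb apart on chromosome 6. C4b (34728380 to 34743882) and C2 (34862604 to 34898265) lie 118.7 kb apart on the minus strand of chromosome 17, in the major histocompatibility region, and C3 lies on the same strand of that chromosome from 57203970 to 57228136. Serping1 lies on the minus strand of chromosome 2 from 84765387 to 84775444, 40.5 Mb from Fbn1.

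C4b has a copy on the same chromosome, C4a, known in mice as the sex-limited protein gene. Their longest GENCODE M21 transcripts were identical at 96.1% of 5367 aligned bases. The windows below show 100 coding bases of C4b, from base 62 to base 161 of its transcript, and the same stretch of C4a. They were taken as the earliest window with the median number of differences, which was 2, and capitals mark the differing bases.
C4b: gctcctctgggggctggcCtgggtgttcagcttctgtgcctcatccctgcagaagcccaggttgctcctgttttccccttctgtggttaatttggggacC
C4a: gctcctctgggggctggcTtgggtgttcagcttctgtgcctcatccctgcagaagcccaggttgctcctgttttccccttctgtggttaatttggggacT
C1ra and C1rb transcripts were identical at 98% of 2429 aligned bases. A window chosen in the same way, bases 395 to 494 of the C1ra transcript, held 1 difference.
C1ra: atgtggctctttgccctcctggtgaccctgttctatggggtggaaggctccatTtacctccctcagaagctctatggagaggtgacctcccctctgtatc
C1rb: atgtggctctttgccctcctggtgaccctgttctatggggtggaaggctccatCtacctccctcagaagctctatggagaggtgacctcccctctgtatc
C1s1 and its copy C1s2 were identical at 95.9% of 2661 aligned bases. Of all 50-base stretches in the transcripts of each gene, 34.6% of those of C4b, 50.8% of those of C1ra, 21.8% of those of C1s1 and 38.7% of those of C2 also occurred in a transcript of another gene. For C2 the partner was Gm20547, a read-through model on the same strand that shares 1656 exon bases with C2 and held 1 to 14 counts per library. No such stretch of the C1q genes, C3 or Serping1 was shared. C1rb was listed at 0 in every library and C1s2 held 0 to 8 counts. C4b held 97.1 to 98.4% of the summed C4b and C4a CPM in wild type and 98.8 to 99.1% in Tsk. How the counting assigned shared reads is not given in the sources used here, so the counts of C4b, C1ra, C1s1 and C2 are uncertain to that extent.

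For promoters, the RefSeq table (GRCm38.p6, the same assembly as mm10) held 6 windows for 5 of the genes, C1qb, C1qc, C1ra, C3 and, with a pair of starts, C1s1. The 250 bases before each start were searched on both strands for 6 motifs. They included the interferon-gamma-activated site TTCNNNGAA, the interferon response pair (GAAA, any 2 bases, GAAA) and the PU.1 core GAGGAA. The others were TTGCNNCAA, the NF-kB motif (GGGA, any base, TTTCC) and the TATA box TATAAA. TTGCNNCAA was meant for C/EBP, but its letters differ from the usual C/EBP site, so C/EBP sites were not tested. The PU.1 core, bound in macrophages by the transcription factor PU.1, occurred in the C1qb and C1qc windows, as it did in 23.3% of 32851 promoter windows of that length. Both windows are printed because the C1q genes had similar proportions in every library, with the matched bases in capitals. C1qb lies at chr4:136886201-136886450 and C1qc at chr4:136892915-136893164, both on the minus strand.
C1qb: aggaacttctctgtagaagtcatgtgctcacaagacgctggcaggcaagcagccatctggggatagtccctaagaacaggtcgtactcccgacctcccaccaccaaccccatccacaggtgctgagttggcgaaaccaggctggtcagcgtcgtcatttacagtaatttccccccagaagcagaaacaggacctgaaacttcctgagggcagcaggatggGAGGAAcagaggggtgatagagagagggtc
C1qc: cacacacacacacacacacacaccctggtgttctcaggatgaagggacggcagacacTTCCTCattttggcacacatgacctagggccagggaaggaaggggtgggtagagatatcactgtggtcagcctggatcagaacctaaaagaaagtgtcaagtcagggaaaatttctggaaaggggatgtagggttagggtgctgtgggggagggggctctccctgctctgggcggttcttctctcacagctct
The match in C1qb begins 30 bases before its RefSeq start on the sense strand. That in C1qc begins 193 bases before its RefSeq start on the other strand. The C1qc window, from 136892915, overlaps the GENCODE gene, which ends at 136893065 on the minus strand. The RefSeq start of C1qc thus lies inside the GENCODE gene, and its match is nearer to the GENCODE start. The C1ra window, 124512371 to 124512620 on the plus strand, likewise lies mostly inside its GENCODE gene, which starts at 124512405. A C1s1 window from 124542322 overlaps its gene, which ends at 124542359 on the minus strand. For C1ra the search thus covered few bases before the GENCODE start. None of the other 5 motifs matched in any of the 6 windows, against 7.02% of all windows for TTCNNNGAA, 2.98% for the interferon response pair, 1.74% for TTGCNNCAA, 0.356% for the NF-kB motif and 12.4% for TATAAA. A match is a run of letters and shows no binding.

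The comparison asked how the complement genes of Tsk skin differed from those of wild-type skin. All 9 genes had higher mean levels in Tsk, with log2 fold changes from 0.94 to 2.03 and a median of 0.98, against a median of -0.026 over all genes tested, of which 47% lay above 0. C4b, at 4.07-fold, and C2, at 2.18-fold, rose past the threshold. Thus 2 of 9 were called higher, where 2.72% of all genes were, and the other 7 were not called at about 1.9-fold to 2.3-fold. In 5 of the 9, C1qa, C1s1, C2, C4b and Serping1, every Tsk library lay above every wild-type library, as did 14.1% of all genes. The 9 genes together made up 0.0307 ± 0.00124% of wild-type counts and 0.0911 ± 0.0398% of Tsk counts, without TMM scaling (SD, n = 3 each). Their TMM-scaled sums were 309, 376 and 331 CPM in the wild-type libraries and 505, 777 and 1178 CPM in the Tsk libraries. With a skeletal muscle score as a covariate neither C4b nor C2 passed, at log2 fold changes of 1.80 and 1.15 (edgeR adjusted p = 0.183 and 0.150).

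**Figure D1:**
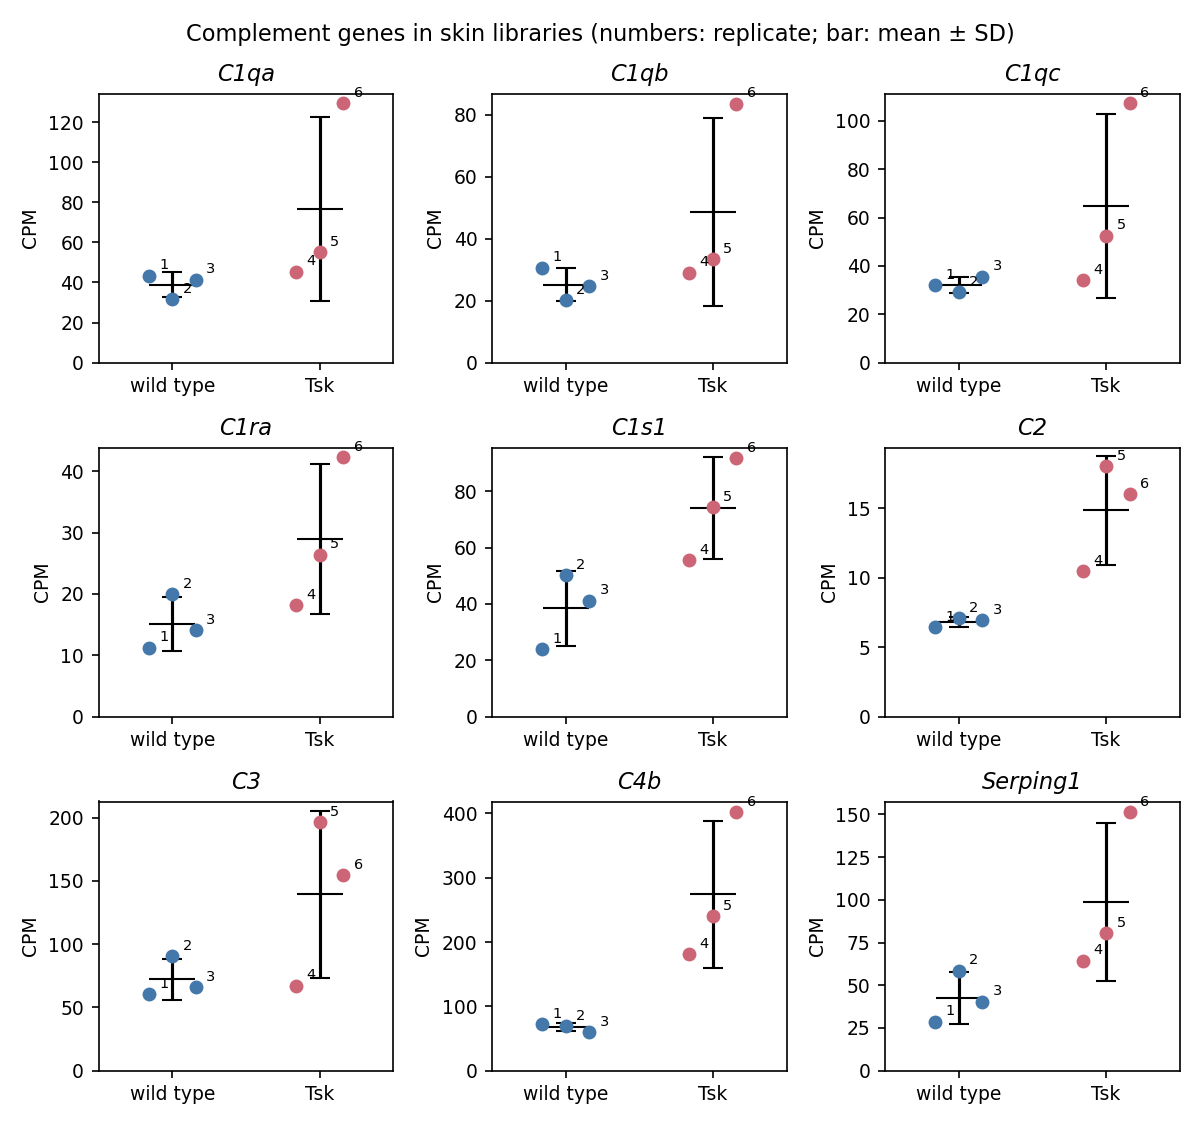
Level of each of the 9 complement genes in CPM (linear axes from 0) in 3 wild-type and 3 Tsk libraries. Points are libraries with their replicate number, and bars are mean ± SD. Tsk replicate 4 is the lowest Tsk library for all 9 genes, and C4b shows the widest gap between the groups, at 72.4 CPM or less in wild type and 181 CPM or more in Tsk.

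Among the substrates of the C1 proteases, C4b had the largest fold change of the 9. C4 is cut by C1s, and its larger fragment binds covalently to targets. C4b stood at 72.4, 69.0 and 60.5 CPM in the wild-type libraries and at 181, 240 and 402 CPM in the Tsk libraries. The groups did not overlap, and the lowest Tsk library was well above the highest wild-type library. Its log2 fold change was 2.03 ± 0.28 (SE, edgeR adjusted p = 0.0123), rank 106 by p among all genes tested. With C4a counts added to C4b, an alternative chosen after the data were seen, it was 2.01 (edgeR adjusted p = 0.0130, where the alternatives ranged from 1.94e-11 to 0.183). C4a alone stood at 1.61 ± 0.557 CPM against 2.82 ± 1.06 CPM in Tsk (edgeR adjusted p = 0.255). C4b passed in 5 of 6 fits that left out 1 library, all but that without wild-type replicate 3 (1.96, edgeR adjusted p = 0.0709), and its log2 fold change ran from 1.65 without Tsk replicate 6 to 2.25 without Tsk replicate 4.

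C2, the protease that joins C4 in the C3-cutting enzyme, was the scarcest of the 9 per length. It held 116, 110 and 112 counts in the wild-type libraries and 203, 387 and 341 counts in the Tsk libraries, which is 6.44, 7.12 and 6.95 against 10.5, 18.1 and 16.01 CPM. The wild-type libraries lay close together and all below the Tsk libraries. Its log2 fold change was 1.12 ± 0.21 (edgeR adjusted p = 0.0279), and it passed in 2 of 6 fits with 1 library left out, those leaving out wild-type replicate 1 (1.10) or Tsk replicate 4 (1.32). It did not pass without wild-type replicate 2 (1.16) or 3 (1.14), or without Tsk replicate 5 (0.96) or 6 (1.07), with edgeR adjusted p of 0.0657, 0.113, 0.0701 and 0.0767 in that order.

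C3 is the central component, cut by the enzymes of every pathway. It stood at 60.4, 90.6 and 65.8 CPM in wild type and at 67.2, 196 and 155 CPM in Tsk. Tsk replicate 4 fell inside the wild-type range, while the other Tsk libraries lay above it. The log2 fold change of 0.95 ± 0.35 did not pass (edgeR adjusted p = 0.185). It was 0.62 without Tsk replicate 5 and passed at 1.28 without Tsk replicate 4 (edgeR adjusted p = 0.0279, where the alternatives ranged to 0.517).

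The 3 chains of C1q had similar profiles over the libraries. C1qa stood at 43.4, 31.8 and 41.4 CPM in wild type and at 45.4, 55.3 and 129 CPM in Tsk. The groups were separated by a narrow gap, and Tsk replicate 6 stood far above the rest. C1qb stood at 30.7, 20.1 and 24.6 against 29.0, 33.4 and 83.5 CPM, and C1qc at 31.99, 29.1 and 35.6 against 34.1, 52.5 and 107 CPM. For both, Tsk replicate 4 lay within the wild-type range and replicate 6 was again the highest. None passed, at log2 fold changes of 0.98 ± 0.37 for C1qa, 0.95 ± 0.39 for C1qb and 1.01 ± 0.37 for C1qc (edgeR adjusted p = 0.189, 0.221 and 0.177). DESeq2 called C1qc, with adjusted p = 0.0456 (over all alternatives 0.0456 to 0.723), and neither of the others. Without Tsk replicate 6 these values were 0.37, 0.31 and 0.43. Within the C1q sum, C1qa held 40.3 ± 0.935% of CPM in wild type and 40.5 ± 1.35% in Tsk. For C1qb the shares were 26.0 ± 2.55% and 25.5 ± 1.63%, and for C1qc 33.7 ± 3.09% and 34.04 ± 2.93% (SD, n = 3 each). These proportions differed between the groups by less than the spread between replicates.

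Macrophage markers were followed beside C1q, since macrophages are a main source of it in tissue. The 15 markers summed to 460, 315 and 461 CPM in wild type and to 476, 583 and 1066 CPM in Tsk, with none of the 15 at 0 in all libraries. C1q sums were 106, 80.9 and 102 CPM against 109, 141 and 320 CPM, so Tsk replicate 6 was highest in both. Per 100 CPM of macrophage markers, C1q amounted to 23.1, 25.7 and 22.04 CPM in the wild-type libraries and 22.8, 24.2 and 30.02 CPM in the Tsk libraries, and the groups overlapped. None of the 15 markers passed in edgeR, where 8 had an unadjusted p under 0.05, and DESeq2 called 4. Of the 15, 12 lay above 0 and the median log2 fold change of all 15 was 0.58. Aif1 (-1.15), Fcgr1 (-1.05) and Ctss (-0.49) lay below 0, while Cd68 stood at 0.04 and Adgre1 at 0.23. Abundant markers weigh most in the sums, with a Tsk mean of 136 CPM for Lyz2 and 13.2 CPM for Cd68. The ratio of C1q to the sum therefore does not stand for each marker. The receptor Mertk (0.80 ± 0.19, edgeR adjusted p = 0.0622), the colony-stimulating factor receptor Csf1r (1.06 ± 0.28, edgeR adjusted p = 0.0773) and lysozyme Lyz2 (0.84 ± 0.34, edgeR adjusted p = 0.219) were those taken by the naming rule. The part of macrophage number in the C1q values was not tested. In whole skin more cells of a type and more RNA per cell cannot be told apart. The 5 other genes whose log2 CPM followed the mean of the C1q chains most closely over the 6 libraries were Tnfrsf1b, P2rx7, Nfam1, P2rx4 and Trim3, at Pearson's r of 0.992 to 0.996. This is a description of 6 libraries that include the high Tsk replicate 6, and 123 of 14984 genes compared had an r above 0.95.

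**Figure D2:**
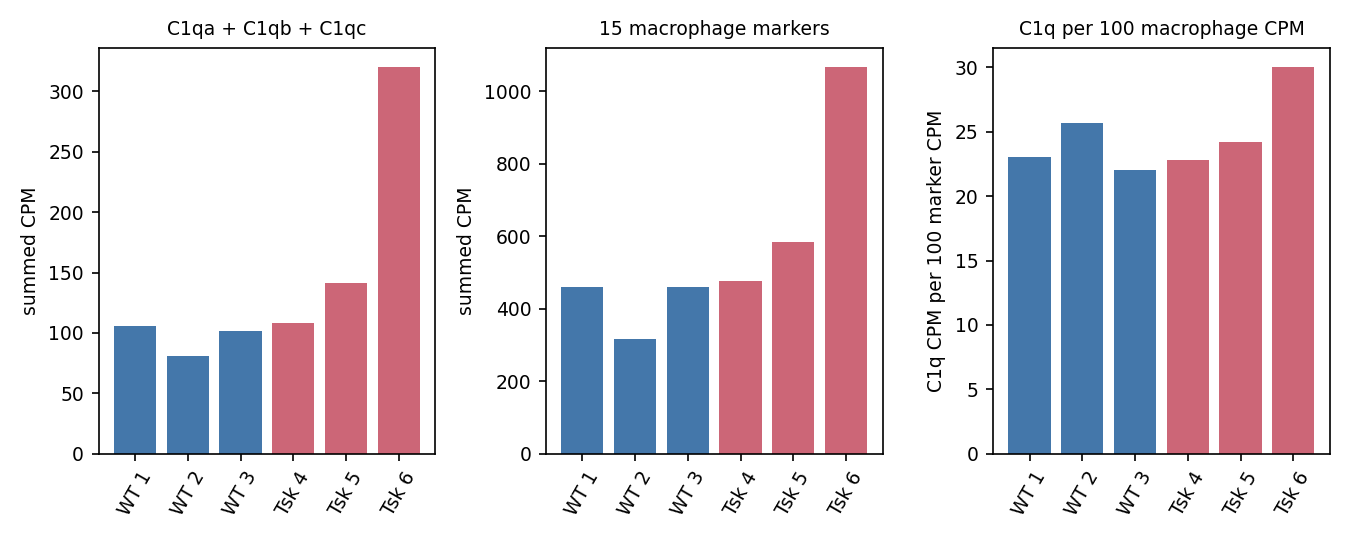
Summed CPM of the 3 C1q genes (left), summed CPM of 15 macrophage markers (middle) and C1q CPM per 100 CPM of those markers (right), 1 bar per library, blue for wild type and red for Tsk. Tsk replicate 6 reaches 320 CPM of C1q and 1066 CPM of markers, while the ratio runs from 22.04 to 30.02 over all libraries.

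C1r and C1s are the proteases that C1q activates, C1r cutting C1s and C1s cutting C4 and C2. C1ra stood at 11.3, 20.0 and 14.1 CPM in wild type and at 18.2, 26.4 and 42.3 CPM in Tsk. Wild-type replicate 2 exceeded Tsk replicate 4, so the groups overlapped. C1s1 stood at 24.0, 50.3 and 41.2 CPM against 55.6, 74.5 and 91.9 CPM. Here the groups were apart, by a small margin above wild-type replicate 2. Neither passed, at log2 fold changes of 0.94 ± 0.32 for C1ra (edgeR adjusted p = 0.150) and 0.94 ± 0.28 for C1s1 (edgeR adjusted p = 0.107). DESeq2 called both, with adjusted p-values of 0.0415 and 0.0152 (over all alternatives 0.0344 to 0.425 and 0.0117 to 0.244).

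Serping1, the inhibitor of these proteases, also had a higher mean in Tsk. Its levels were 28.8, 58.6 and 40.4 CPM in wild type and 64.4, 80.4 and 151 CPM in Tsk, without overlap. The log2 fold change of 1.21 ± 0.35 did not pass (edgeR adjusted p = 0.103) and was 0.77 without Tsk replicate 6. DESeq2 called it with adjusted p = 0.00635 (over all alternatives 0.00635 to 0.386). The ratio of C1ra to Serping1 CPM was 0.360 ± 0.0274 in wild type and 0.297 ± 0.0276 in Tsk, and that of C1s1 to Serping1 was 0.905 ± 0.0992 and 0.799 ± 0.169 (SD, n = 3 each). The ratios of C1s1 to Serping1 overlapped between the groups, while those of C1ra to Serping1 did not, from 0.341 to 0.392 in wild type and 0.279 to 0.328 in Tsk.

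**Figure D3:**
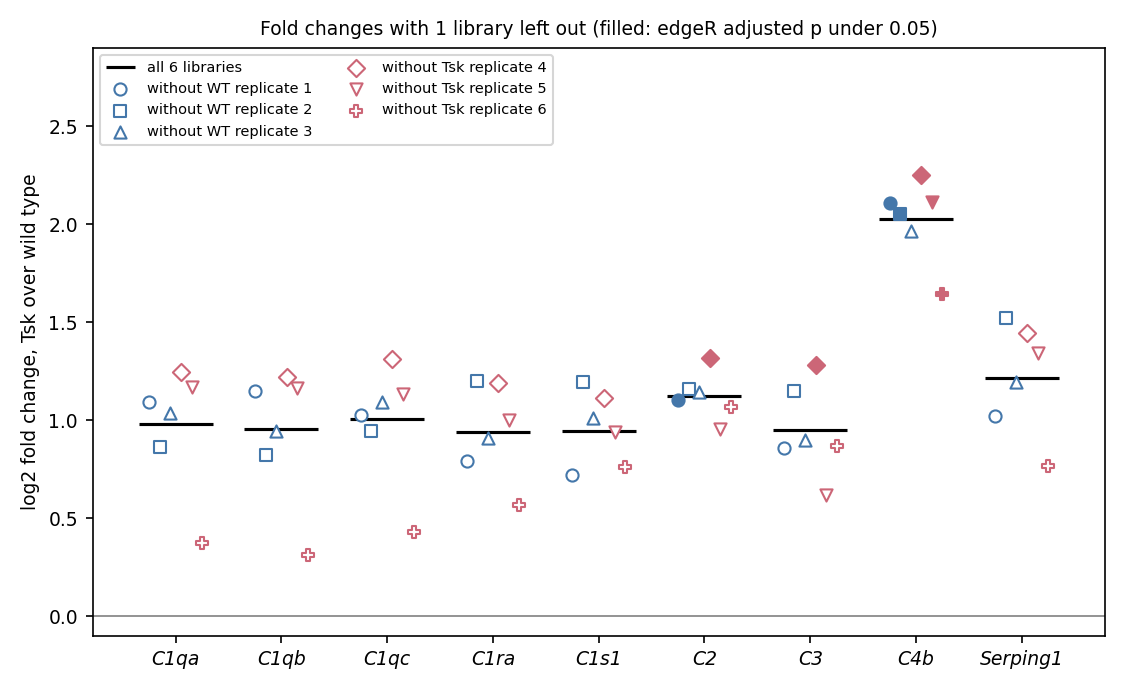
Log2 fold change (Tsk over wild type) of each complement gene with all 6 libraries (line) and with 1 library left out (symbols, filled where the edgeR adjusted p is under 0.05). C4b stays between 1.65 and 2.25, while the C1q genes drop to between 0.31 and 0.43 without Tsk replicate 6.

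The libraries within a group were not ordered alike by all genes. In wild type, replicate 2 was the highest library for 5 genes, C1ra, C1s1, C2, C3 and Serping1, and the lowest for the 3 C1q genes. Replicate 1 was the lowest library for those 5 genes. In Tsk, replicate 4 was the lowest for all 9, replicate 6 the highest for 7, and replicate 5 the highest for C2 and C3. The 13 fibroblast markers summed to 6561, 10702 and 11256 CPM in wild type and to 20224, 19043 and 42929 CPM in Tsk, so their groups did not overlap, with none of the 13 at 0. Most of each sum came from the collagen genes Col1a1, Col1a2 and Col3a1. Their means were 3370, 1937 and 3607 CPM in wild type and 12020, 5694 and 8517 CPM in Tsk, and none of them passed (edgeR adjusted p = 0.0613, 0.0812 and 0.115). In 10 of the 13, against 14.1% of all genes, every Tsk library lay above every wild-type library. Of the 13 markers 4 rose, all 13 lay above 0 and their median log2 fold change was 1.24. Dpp4, a surface peptidase (2.36 ± 0.20), and Mfap5, a microfibril-associated protein (2.61 ± 0.22), had the smallest p-values, and Col1a1, the most abundant, stood at 1.84 ± 0.44 (edgeR adjusted p = 0.0613). The part of fibroblast number in the values of C1ra, C1s1, C3, C4b and Serping1 was not tested.

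Levels were compared between genes as CPM per kilobase of merged GENCODE M21 exons. In wild type the order was C1qa at 37.4, C1qb at 23.1, Serping1 at 18.3, C1qc at 16.7, C3 at 14.05, C1s1 at 12.3, C4b at 11.8, C1ra at 5.07 and C2 at 1.77 CPM per kb. From Serping1 to C4b neighbours differed by less than the larger of their SDs, which were 6.46, 1.70, 3.13, 4.26 and 1.08 CPM per kb in that order. In Tsk, C1qa was again the highest at 73.7 CPM per kb, and C4b came next at 48.1. C1qb at 44.7, Serping1 at 42.5, C1qc at 33.5, C3 at 27.1 and C1s1 at 23.6 followed, with C1ra at 9.71 and C2 at 3.84 again the lowest. C4b thus stood in place 7 in wild type and in place 2 in Tsk, though in Tsk the SDs of C4b and C1qb, 20.1 and 27.8 CPM per kb, exceeded the gap between them.

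**Figure D4:**
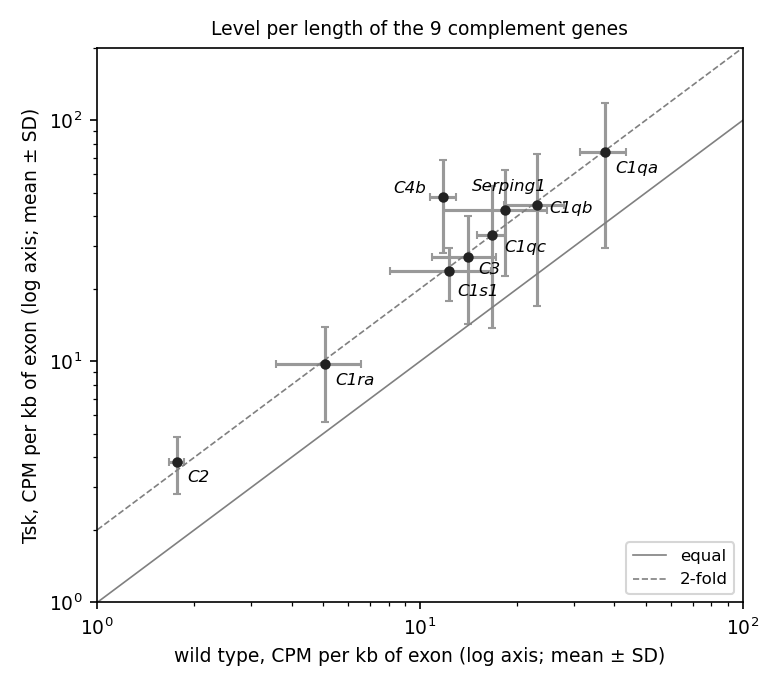
Mean level per kilobase of exon of each gene in wild type (x axis) and Tsk (y axis), both log axes, with SD over 3 libraries, a solid line for equal levels and a dashed line for 2-fold. C4b, at 11.8 and 48.1 CPM per kb, is the point farthest above the dashed line, near which the other genes lie.

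The rest of the complement system was followed through 52 other genes in 4 lists. Of these, 36 passed the filter on low counts, 6 were higher, 0 were lower and 25 lay above 0, with a median log2 fold change of 0.41. Of all genes 2.72% were called higher and 0.696% lower, and 4007 of 19971 had an unadjusted p under 0.05. The other classical and lectin genes had 2 of 6 tested members higher and all 6 above 0. Among the 6, Colec11 held 8, 2 and 7 counts in wild type and 11, 25 and 25 counts in Tsk. It passed the filter on low counts only through the Tsk libraries, so its place above 0, also among the 25, is a description. Fcna, the lectin pathway sensor ficolin A, made by macrophages in mice, rose from 2.94, 4.27 and 3.78 CPM to 11.8, 16.5 and 35.9 CPM, a log2 fold change of 2.55 ± 0.41 (edgeR adjusted p = 0.0186). C1rl, a protease resembling C1r that lies beside C1ra and C1s1, had a mean of 1.45 ± 0.291 CPM against 3.75 ± 0.573 CPM in Tsk, a log2 rise of 1.38 ± 0.25 (edgeR adjusted p = 0.0248). Colec12, a scavenger receptor of the collectin family, was the other abundant member and stood at 0.70 ± 0.27 (edgeR adjusted p = 0.194). Fcna did not pass without wild-type replicate 1, 2 or 3 (2.43, 2.68 and 2.58) and stood at 1.95 without Tsk replicate 6. Tested without the filter on low counts it did not pass either (edgeR adjusted p = 0.0762, where the alternatives ranged from 3.52e-09 to 0.284). C1rl did not pass without wild-type replicate 3 (1.38) or Tsk replicate 5 or 6 (1.29 and 1.34).

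Among alternative and terminal pathway genes 1 of 7 tested members was higher. This was Cfd, which encodes factor D, the adipocyte-made protease that cuts factor B. Cfd stood at 56.4, 56.7 and 38.2 CPM in wild type and at 169, 586 and 138 CPM in Tsk (2.56 ± 0.54, edgeR adjusted p = 0.0444). Tsk replicate 5, which was also the highest for C3, stood apart. The 8 adipocyte markers summed to 225, 276 and 217 CPM in wild type and to 545, 2221 and 379 CPM in Tsk, with none at 0, 1 of 8 higher and a median of 2.52. Cfd stood at 1.60 without Tsk replicate 5 and did not pass without wild-type replicate 1, 2 or 3 (2.67, 2.66 and 2.40), nor without the filter on low counts (edgeR adjusted p = 0.233, where the alternatives ranged from 0.00405 to 0.415). The part of fat in the Cfd and C3 values was not tested. Factor B (Cfb), the C2-like protease of the alternative pathway whose gene lies next to C2, stood at 19.1, 10.8 and 10.98 CPM against 16.1, 23.8 and 35.02 CPM and did not pass (0.87 ± 0.32, edgeR adjusted p = 0.174).

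Of the regulators besides Serping1, 2 of 11 tested members were higher, and 7 lay below 0 with a list median of -0.12. Csmd1, a membrane protein known in humans to inhibit complement, rose from 3.35 ± 1.16 to 7.70 ± 0.539 CPM (1.19 ± 0.25, edgeR adjusted p = 0.0375). It passed in 1 of 6 fits with 1 library left out, that without wild-type replicate 1 (1.54). The most abundant regulators did not pass. Clusterin (Clu), an inhibitor of the terminal complex, stood at -0.41 ± 0.19 (edgeR adjusted p = 0.286), and Cd55, the membrane factor that breaks up the C3-cutting enzymes, at -0.16 ± 0.15 (edgeR adjusted p = 0.619), with the sign of Cd55 changing when library totals alone set the scale.

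Of receptors and C1q-binding proteins 1 of 12 was higher. Vsig4, a macrophage receptor for C3 fragments, held 4, 0 and 1 counts against 21, 29 and 35 counts, so its log2 fold change of 3.68 ± 0.62 (edgeR adjusted p = 0.0191) rests on few reads. It passed the filter on low counts only through the Tsk libraries, where it is high, so its place among the higher genes is given as a description. Its fitted value ran from 3.18 without wild-type replicate 2 to 5.18 without wild-type replicate 1 and was 1.19 with limma-trend on CPM plus 1. It did not pass without wild-type replicate 3 (3.46) or Tsk replicate 6 (3.52). Lrp1, an endocytic receptor with many ligands, stood just outside the threshold at 0.98 ± 0.23 (edgeR adjusted p = 0.0548), and calreticulin (Calr), which binds C1q, at 0.02 ± 0.14 (edgeR adjusted p = 0.949), with a sign that turned negative under upper quartile scaling. Besides complement proper, 3 of 9 tested proteins with a C1q-like domain were higher. C1qtnf7 rose by 1.79 ± 0.25, C1qtnf1 by 1.55 ± 0.28 and C1qtnf6 by 1.49 ± 0.25 on the log2 scale (edgeR adjusted p = 0.0115, 0.0256 and 0.0195). Without wild-type replicate 3 none of these passed (1.95, 1.57 and 1.58), nor C1qtnf6 without wild-type replicate 2 (1.48).

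**Figure D5:**
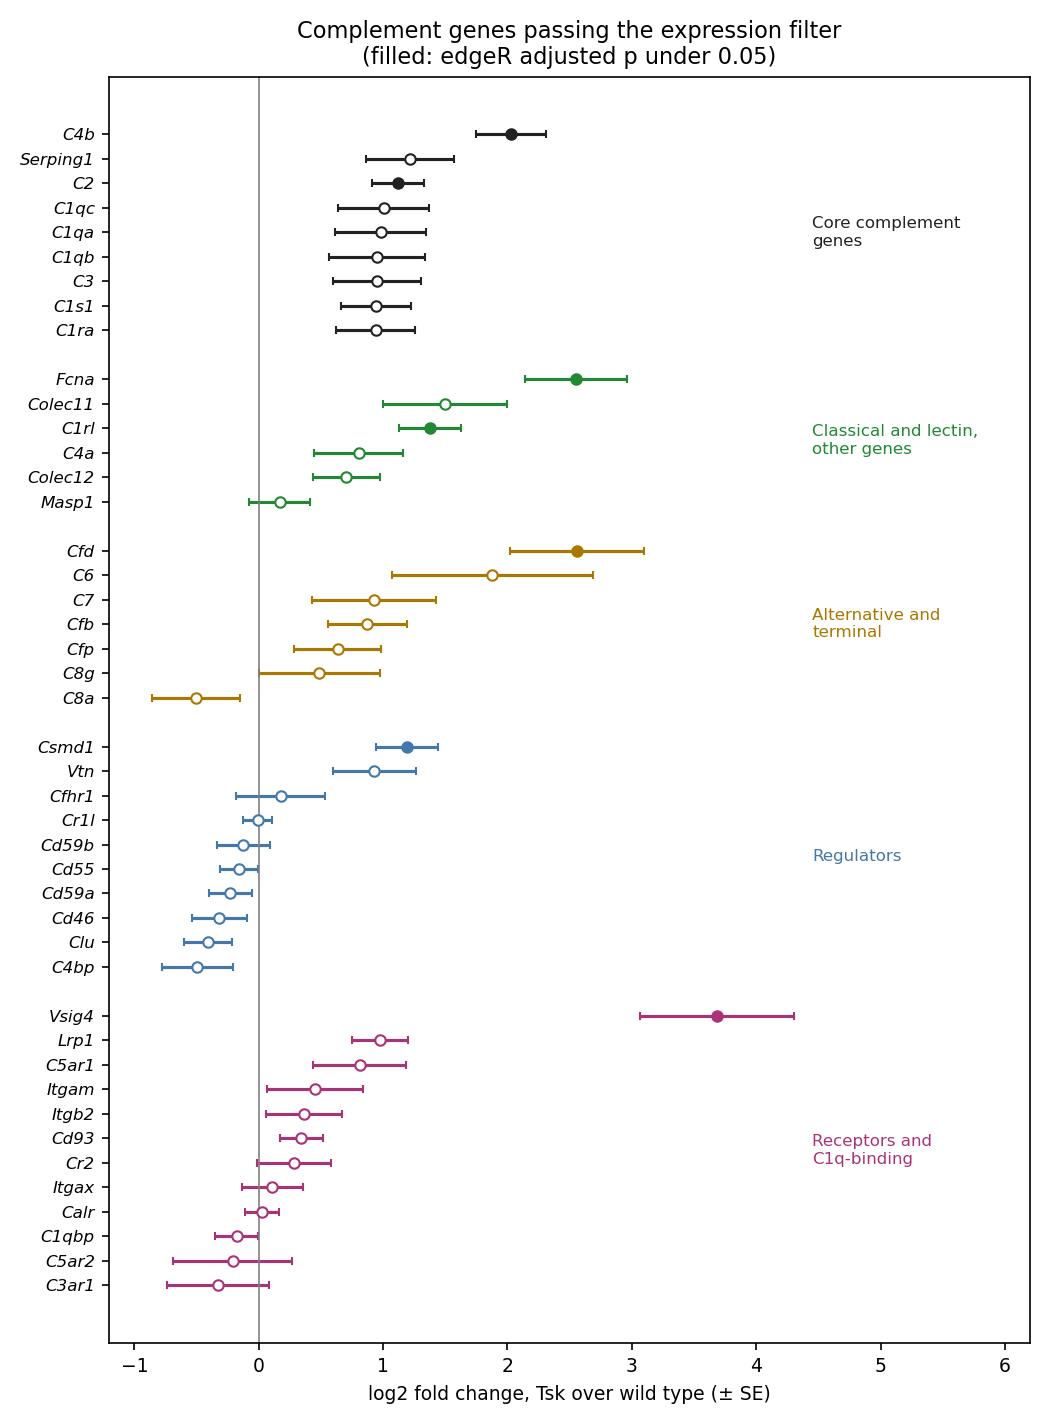
Log2 fold change (Tsk over wild type, ± SE) of the 9 core complement genes and of other complement genes, by group. The latter are the genes of the 4 lists that passed the filter, apart from those named by the rule but not reported here. Filled points mark an edgeR adjusted p under 0.05. The 9 core genes lie between 0.94 and 2.03, while regulators lie on both sides of 0 and Vsig4, at 3.68, rests on few counts.

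Lists of signals known to act on complement genes were set beside these values. Interferon-gamma raises C1r, C1s, C2, C4 and C1 inhibitor in cultured human cells. The 18 interferon target genes followed were not chosen as targets of interferon-gamma alone, so that signal was not tested. Of the 18, 6 lay above 0 and none passed in edgeR, where 6 had an unadjusted p under 0.05, and DESeq2 called 4. In 4 of the 18, against 10.6% of all genes, every Tsk library lay below every wild-type library, in none was it the reverse, and the median was -0.13. Tap1, a subunit of the antigen peptide transporter, was among the most abundant and stood at -0.19 ± 0.24 (edgeR adjusted p = 0.702), with a sign that depended on the scaling. The 18 genes summed to 362, 187 and 233 CPM in the wild-type libraries, where replicate 1 stood apart, and to 199, 234 and 213 CPM in the Tsk libraries. Of 11 tested acute phase and cytokine genes, 1 was higher, Hp, the gene of haptoglobin, which rose from 34.9 ± 3.24 to 168 ± 48.1 CPM (2.27 ± 0.21, edgeR adjusted p = 0.00401) and passed in all 6 fits with 1 library left out. With a covariate for the skeletal muscle score Hp stood at 2.18 and did not pass (edgeR adjusted p = 0.0588), nor did Fcna, C1rl, Cfd, Csmd1, Vsig4, C1qtnf1, C1qtnf6 or C1qtnf7. Il6st, the shared receptor chain of the interleukin 6 family, was the most abundant and stood at 0.30 ± 0.15 (edgeR adjusted p = 0.291). The median of the 11 was 0.18, and 6 lay above 0. In 4 of the 11 every Tsk library lay above every wild-type library, and in 1, Socs3, every Tsk library lay below. Socs3 went from 51.5 ± 15.3 to 25.7 ± 6.26 CPM and did not pass (edgeR adjusted p = 0.0727). Il1b did not pass the filter on low counts, at 21, 41 and 9 counts in wild type against 0, 1 and 1 counts in Tsk. Hepatocyte genes were followed as a sign of liver RNA, and the 7 summed to between 0.621 and 3.08 CPM over the 6 libraries, with Fgb and Serpina1a at 0 in every library. Ttr, the gene of transthyretin and the 1 tested member, was lower in Tsk, at 28, 36 and 42 counts against 5, 9 and 5 counts (-2.79 ± 0.37, edgeR adjusted p = 0.0105). It passed the filter only through the wild-type libraries, where it is high. Neutrophil and monocyte markers had none of 6 tested members called by edgeR (1 at an unadjusted p under 0.05, 1 by DESeq2) and a median of -0.48, with Ly6g at 0. The 1 at an unadjusted p under 0.05 in edgeR was S100a9, at 10, 16 and 12 counts against 3, 6 and 1 counts. S100a9 too passed the filter only through the wild-type libraries, where it is high. Dendritic and Langerhans cell markers had none of 7 called by edgeR or DESeq2, 0 at an unadjusted p under 0.05 and a median of 0.31. For T, B and mast cell markers these were none of 6 in edgeR (3 unadjusted, 2 by DESeq2) and 0.76. Of the skeletal muscle markers none of 12 passed in edgeR (7 unadjusted, 9 by DESeq2), at a median of -0.77. Of 8 endothelial markers 3 were higher (median 1.11), and of 8 keratinocyte markers 1 (median -0.27).

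The neighbouring genes were examined for the same difference. Of all genes tested, 3.42% were called in either direction. Within 200 kb of the C1q genes, 2 other genes were tested and 0 called. Around C2 and C4b, 2 of 36 others were called, both higher, with a median log2 fold change of 0.09. Around C1ra and C1s1, C1rl was the 1 of 14 called, with a median of 0.02, around C3 1 of 11 (0.23), and around Serping1 1 of 14 (0.06).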

How the data were processed

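Dorsal skin RNA of 6 samples, 3 wild type and 3 Tsk, was depleted of ribosomal RNA and sequenced strand-specifically, per the labels' protocols. The submitters' processing notes name bcl2fastq 2.19.1.403, STAR, Partek 7.0 and mm10. How strands and shared reads were counted is not given in the sources used here. Per gene, the deposited table holds estimated counts, with 34.8 to 37.3% of values in a library not whole, and these expected counts were rounded before testing. The deposited CPM values, to which 0.0001 had been added per the file headers, and the authors' TMM-normalised signal entered alternatives alone. Deposited TPM values divide by the gene span with introns and were not used.

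Groups came from the labels. The main test was that of edgeR 4.0.16 under R 4.3.3 (quasi-likelihood F-test, robust, TMM, minimum count 10, minimum total 15) over 19971 genes, with Benjamini-Hochberg adjustment and a threshold of 0.05. The SE is the log2 fold change divided by the square root of F. Levels are mean ± SD of TMM-scaled CPM with n = 3. The step was also run on simulated counts in which genes varied independently, so that run does not bear on library effects in these data. No library pair agreed within sampling noise (lowest within-group chi-square over its degrees of freedom 6.08).

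The 9 genes and the lists were chosen with earlier results of these data known. Named genes were the 9, from each other list up to 4 past the threshold with the smallest p and the 2 most abundant, from each cell marker list the 2 with the smallest p and the most abundant (printed for macrophages, fibroblasts and hepatocytes), the 5 most similar to C1q, and Fbn1. Of the genes this rule names, 2 are not reported here, though the counts of their lists include them. C4a, Gm20547, C1rb, C1s2, Colec11, Col1a2, Col3a1, Socs3, Il1b, S100a9, Fgb, Serpina1a and Ly6g were added after their values were seen. So were the macrophage markers Cd68, Adgre1, Aif1, Fcgr1 and Ctss. Alternatives were other scalings and filters, DESeq2 1.42.0, limma 3.58.1, a skeletal muscle score as covariate and leaving out each library. Summing near-identical copies was added after the data were seen. Sequences came from RefSeq (GRCm38.p6) and GENCODE M21.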

Additional observations from a re-analysis of the deposited data

How the results depend on the processing

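The log2 fold changes of all 9 complement genes stayed above 0 under all 20 alternatives. Of the 9, 2 were called with all 6 libraries and 0 to 3 with 1 library left out, while the count over all genes, 683, ran from 63 to 1381. It was 1381, 328 and 63 without wild-type replicates 1, 2 and 3, and 528, 402 and 388 without Tsk replicates 4, 5 and 6. With library totals alone as the scaling 5 of the 9 and 1791 genes passed, with limma-trend on the deposited CPM 5 of the 9 and 1888 genes (plus 0.5) or 1871 genes (plus 1), and with limma-trend on the deposited TMM-normalised values 4 of the 9 and 1272 genes. DESeq2 called 6 of the 9 and 1592 genes, and testing without a filter 1157 genes. Adding a skeletal muscle score to the model left 0 of the 9 and 66 genes past the threshold. The cause of these differences was not tested. Library totals moved the median of all genes from -0.026 to 0.25, and the split of calls to 1695 higher and 96 lower.

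Some genes near 0 changed sign. With library totals Cd55 and Tap1 stood at 0.13 and 0.042, with limma-trend on CPM plus 0.5 at 0.12 and 0.13, and plus 1 at 0.12 and 0.13. On the TMM-normalised values Tap1 stood at 0.00049. Calr was -0.014 with upper quartile factors. With 1 library left out Tap1 ran from -0.39 to 0.14 and Calr from -0.012 to 0.071. No paired analysis was possible because the groups share no replicate number.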
